A study of Homo sapiens with 35 samples.

Results

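The protein kinase C (PKC) family was followed through its 8 gene rows PRKCA, PRKCB, PRKCD, PRKCE, PRKCH, PRKCQ, PRKCI and PRKCZ. The rows were taken by exact gene name, each found once in both deposited count tables, and they are 8 of 59428 gene rows. Read counts came from poly(A) RNA of 35 libraries in 13 groups, from 4 established human acute myeloid leukaemia (AML) cell lines. All 4 are of the myeloid lineage, and U937 and THP-1 are widely used as models of monocytes. The labels name sgControl cells, given a control guide RNA, SKO cells with a guide against SUV39H1, and DKO cells with guides against SUV39H1 and SUV39H2, which encode histone H3 lysine methyltransferases of heterochromatin. Untreated U937 and untreated THP-1 each had 3 libraries of sgControl, SKO and DKO. U937 treated with TPA, a phorbol ester, had the same 3 groups of 3 libraries, and the labels used here give no dose or time. The remaining lines were untreated and had 2 libraries a group, sgControl with SKO in MOLM-13 and sgControl with DKO in OCI-AML-3. Library names carry clone number 1 for THP-1 sgControl and SKO and clone number 3 for untreated U937 DKO. Genotype and clone cannot be told apart in these groups. Separate cultures are not stated for the replicates, and the p-values below thus rest on a spread among libraries that may be technical.

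PKC enzymes are serine/threonine kinases that pass on signals from receptors at the cell surface. Classical isoforms (PRKCA, PRKCB) respond to calcium and to diacylglycerol, the calcium-independent nPKC isoforms (PRKCD, PRKCE, PRKCH, PRKCQ) respond to diacylglycerol alone, and atypical isoforms (PRKCI, PRKCZ) respond to neither. Phorbol esters such as TPA take the place of diacylglycerol, so they act directly on the classical and nPKC isoforms. In monocytic lines, TPA is a widely used agent for driving cells towards a macrophage-like state. The values below are transcript levels and say nothing of kinase activity, location or protein turnover.

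Counted reads per library ranged from 31985767 to 61178704. Levels are given as CPM, read counts scaled to a common library size with TMM over all libraries, and as RPKM, CPM per kilobase of exon, where genes are compared with each other. The targeted transcripts were lower in some labelled knockouts only. The SUV39H1 mean was 66.3 CPM in untreated U937 sgControl, 112.6 in SKO and 83.0 in DKO, and in THP-1 it was 35.3, 95.5 and 55.2. With TPA the U937 means were 36.8, 53.5 and 22.3 CPM. MOLM-13 fell from 28.7 to 7.63 CPM in SKO, and OCI-AML-3 fell from 35.8 to 3.48 CPM in DKO. SUV39H2 went from 43 to 32.8 CPM in U937 DKO, from 31.9 to 13.8 in THP-1 DKO, from 20.2 to 9.91 in treated U937 DKO and from 24.1 to 19.1 in OCI-AML-3 DKO. SUV39H2 was lower in SKO without TPA as well, where the labels name no guide against it, at 35.6 CPM in U937, 20.5 in THP-1 and 12.3 in MOLM-13 (27.5 in its sgControl). Since SUV39H1 was higher in the U937 and THP-1 libraries labelled SKO or DKO than in sgControl without TPA, these names below mean the libraries labelled so. Of 13 myeloid markers, 10 to 12 were above 1 CPM in each group, while CD68 stayed under 1 CPM in every library. Overlaps of marker rows with other genes were not examined, so a low count does not show that a marker is absent. Of the 11 T and B cell markers, the summed level was 0.821 to 33.6 CPM, and of the 9 erythroid and megakaryocyte markers it was 4.22 to 31 CPM. The 10 epithelial, stromal and endothelial markers summed to 69.4 to 832 CPM, and most of this was PECAM1 (69.6 CPM on average in OCI-AML-3 sgControl and 640.4 CPM in THP-1 sgControl), which leukocytes also express. In bulk RNA, fewer cells that express a gene and less RNA per cell cannot be told apart.

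Upstream sequences of 3 members are shown because their transcripts set the lines apart most (PRKCA, PRKCH) or carried most of the change in U937 (PRKCB). Each is the 250 bases before the start that RefSeq gives (GRCh38.p14, plus strand, 5′ to 3′), and capitals mark the Sp1 box GGGCGG. PRKCA is at chr17:66302363-66302612, PRKCB at chr16:23835733-23835982 and PRKCH at chr14:61321329-61321578.
PRKCA: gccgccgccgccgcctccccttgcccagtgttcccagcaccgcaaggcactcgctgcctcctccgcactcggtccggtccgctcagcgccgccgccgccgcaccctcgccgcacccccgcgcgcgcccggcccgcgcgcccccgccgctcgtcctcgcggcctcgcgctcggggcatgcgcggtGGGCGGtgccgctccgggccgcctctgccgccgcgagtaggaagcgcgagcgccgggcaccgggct
PRKCB: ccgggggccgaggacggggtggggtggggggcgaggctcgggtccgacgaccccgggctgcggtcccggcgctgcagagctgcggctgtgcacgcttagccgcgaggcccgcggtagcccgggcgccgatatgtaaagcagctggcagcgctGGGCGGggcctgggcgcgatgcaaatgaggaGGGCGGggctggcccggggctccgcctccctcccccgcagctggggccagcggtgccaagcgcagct
PRKCH: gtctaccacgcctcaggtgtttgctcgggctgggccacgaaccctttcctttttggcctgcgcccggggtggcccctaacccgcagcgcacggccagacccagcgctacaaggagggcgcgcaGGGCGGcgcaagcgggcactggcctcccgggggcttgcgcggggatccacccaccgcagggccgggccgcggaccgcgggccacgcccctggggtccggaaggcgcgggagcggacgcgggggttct
The PRKCA and PRKCB stretches end right before the deposited gene rows, which start at 66302613 and 23835983. The PRKCH stretch lies inside its deposited row, chr14:61187559-61550976, which begins further upstream. RefSeq windows of 300 bases (250 before and 50 after a start) were found for all 8 members, 13 windows in all. The TPA response element bound by AP-1, searched as TGANTCA on both strands, was in 0 of the 13 windows and in 7.71% of all 35116 windows. The cAMP response element TGACGTCA was in 1 of the 4 windows of PRKCZ and in 1.85% of all windows. GGGCGG, on either strand, was in 10 of the 13 windows and in 45% of all windows, and PRKCQ was the member without it. None of the 3 motifs contains another. A match is only a run of letters, and a missing match says only that these letters are not in the window. The PRKCA window was 81.3% G and C, PRKCB 77.7% and PRKCH 74.3%, against a median of 58.7% over all windows, while PRKCQ stood at 51.3%.

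PRKCD, an nPKC isoform with known roles in differentiation and cell death, had the highest mean per length in all 13 groups. On average it held 46.6% to 71.7% of the summed RPKM of the 8 members. In treated U937 SKO it overlapped PRKCB, at 67 to 67.8 RPKM against 64.4 to 68.3 RPKM. This order depends on the deposited exon lengths, 3619 bases for PRKCD and 11049 for PRKCB. In CPM, without that division, PRKCB was above PRKCD in every U937 group (234.9 against 201.6 in untreated sgControl). In MOLM-13 and OCI-AML-3, PRKCD was above PRKCB in CPM too (178.6 against 111.5 in MOLM-13 sgControl). The PRKCD mean was 55.7 RPKM in U937 sgControl, 80.3 in THP-1 sgControl, 49.4 in MOLM-13 sgControl and 58.4 in OCI-AML-3 sgControl. PRKCB, the classical isoform known from myeloid and B cells, came next by mean in every group, at 21.3, 27.2, 10.1 and 17.3 RPKM in the same 4 groups. PRKCI, an atypical isoform of cell polarity complexes, stood at 7.05, 7.26, 9.04 and 5.70 RPKM. PRKCQ, best known from T cell receptor signalling, stood at 4.11, 3.44, 1.99 and 0.89 RPKM, and PRKCE at 1.85, 1.18, 0.417 and 0.643 RPKM. The order PRKCD, PRKCB, PRKCI was the same in U937, MOLM-13 and OCI-AML-3 sgControl. In THP-1 sgControl, PRKCA (10.7 RPKM, 10.3 to 11.3) lay between PRKCB and PRKCI without overlap. PRKCE (1.18 RPKM, 1.02 to 1.33) and PRKCZ (1.19 RPKM, 1.13 to 1.26) overlapped there. In U937 sgControl the lowest places were PRKCZ (0.226 RPKM), PRKCH (0.0409 RPKM, 0.0289 to 0.0541) and PRKCA (0.0176 RPKM, 0.00422 to 0.0383), and the last pair overlapped.

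**Figure D1:**
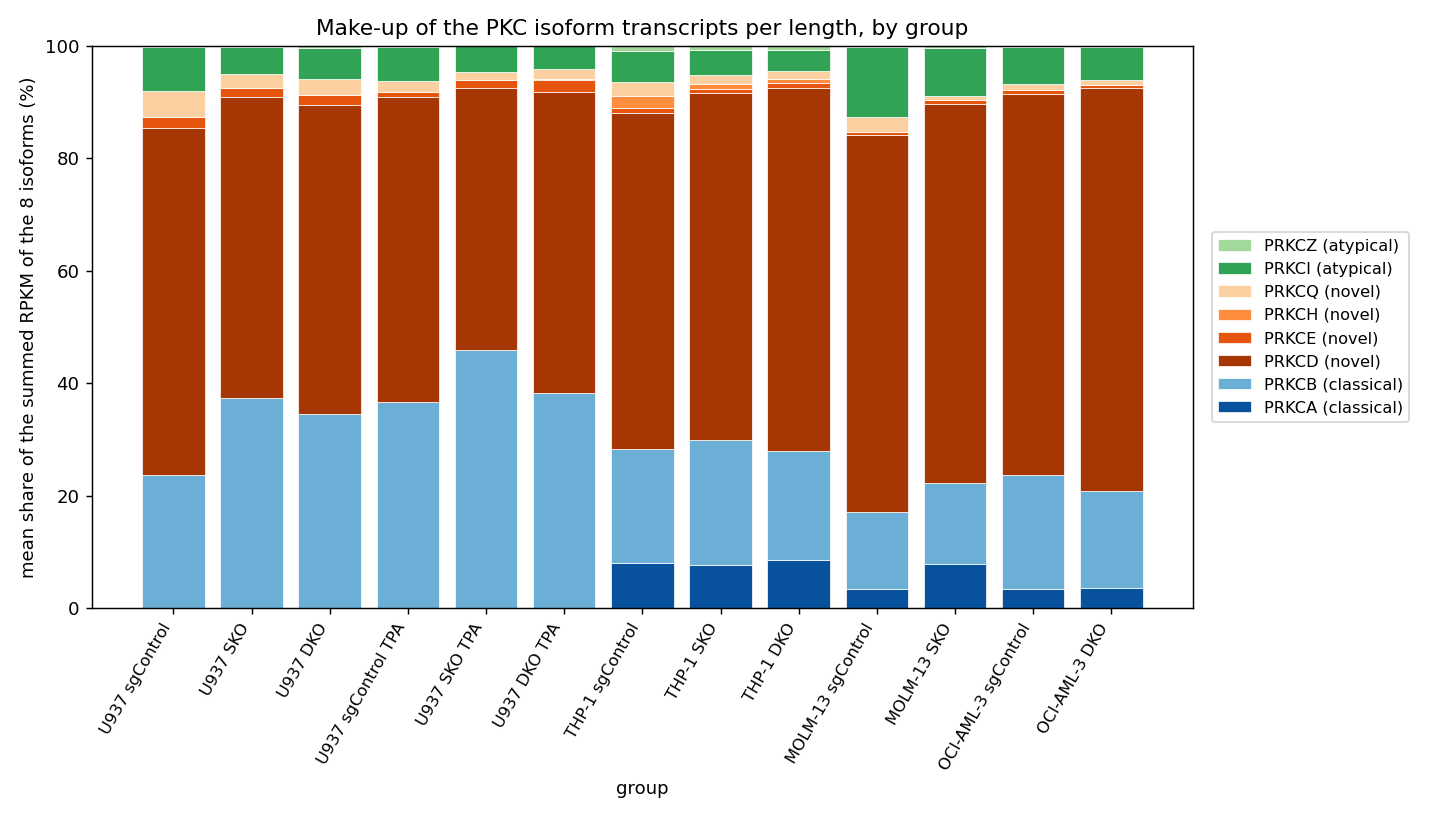
Mean share (%, bars stacked to 100) of each isoform in the summed RPKM of the 8 isoforms, for the 13 groups (n = 3 libraries each for U937 and THP-1, n = 2 for MOLM-13 and OCI-AML-3). PRKCD is the widest band in every bar, PRKCB the next, and the PRKCA band is visible in THP-1, MOLM-13 and OCI-AML-3 but not in U937.

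Baselines of the lines differed most in PRKCA and PRKCH. PRKCA, the most widely expressed classical isoform in many tissues, had 18, 2 and 4 reads in the 3 U937 sgControl libraries (0.428, 0.0472 and 0.114 CPM) and 6222, 6048 and 6020 reads in THP-1 sgControl (116.7, 115.0 and 125.8 CPM). U937 was thus near the floor and THP-1 high, with no overlap. The log2 difference, THP-1 over U937, was 9.18 ± 0.15 (SE, adjusted p = 6.1e-34, edgeR quasi-likelihood test). Over all 18 U937 libraries PRKCA had 2 to 46 reads, 280 in sum, and every one of the 18 counts was even. The counting command in the header takes the mates of a pair singly, so 2 reads can be 1 fragment. MOLM-13 sgControl had 25.4 and 29.5 CPM and OCI-AML-3 sgControl 32.6 and 34.1 CPM of PRKCA.

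PRKCH, an nPKC isoform best known from epithelia and lymphocytes, had 0.357, 0.26 and 0.485 CPM in U937 sgControl and 27.5, 24 and 26.6 CPM in THP-1 sgControl. The groups were far apart, and the log2 difference was 6.15 ± 0.19 (SE, adjusted p = 7.2e-26). MOLM-13 and OCI-AML-3 had 0 to 17 PRKCH reads per library, too few for their fits. PRKCZ, the other atypical isoform, was higher in THP-1 by 2.38 ± 0.16 (1.74 against 9.14 CPM on average). PRKCD was higher in THP-1 by 0.51 ± 0.04 and PRKCB by 0.34 ± 0.04. PRKCE was lower in THP-1 by a log2 difference of -0.67 ± 0.09. PRKCQ was lower with -0.27 ± 0.10 (adjusted p = 0.016), a call that was lost without U937 sgControl replicate 1 (adjusted p = 0.11) or THP-1 sgControl replicate 1 (0.064) or 3 (0.085). PRKCI differed by 0.03, with a 95% interval of -0.09 to 0.15. These 7 calls among 8 members stand against 76.3% of 18715 genes called in the same comparison. The 20 tested genes within 5 Mb of PRKCI (mean log2 CPM of at least 1, as for all such neighbourhoods) had a median of 0.97 in this comparison, against 0.05 over all genes at that level, so PRKCI stood below its neighbours.

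MOLM-13 and OCI-AML-3 were compared within their own deposited table. MOLM-13 sgControl was lower than OCI-AML-3 sgControl in PRKCB (111.5 against 191.7 CPM, log2 difference -0.78 ± 0.05), PRKCE (-0.62 ± 0.14), PRKCD (-0.24 ± 0.04) and PRKCA (-0.28 ± 0.07). It was higher in PRKCQ (6.56 against 2.93 CPM, 1.16 ± 0.20), PRKCI (52.2 against 32.9 CPM, 0.67 ± 0.07) and PRKCZ (0.66 ± 0.28). All 7 members in the fit were called, against 69% of 17711 genes. The PRKCA call was lost without MOLM-13 sgControl replicate 1 (adjusted p = 0.086). The PRKCZ call was lost without MOLM-13 sgControl replicate 2 (0.24) or OCI-AML-3 sgControl replicate 2 (0.25). The 53 tested genes within 5 Mb of PRKCA had a median of -0.76 in this comparison, against 0.03 over all genes at that level.

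**Figure D2:**
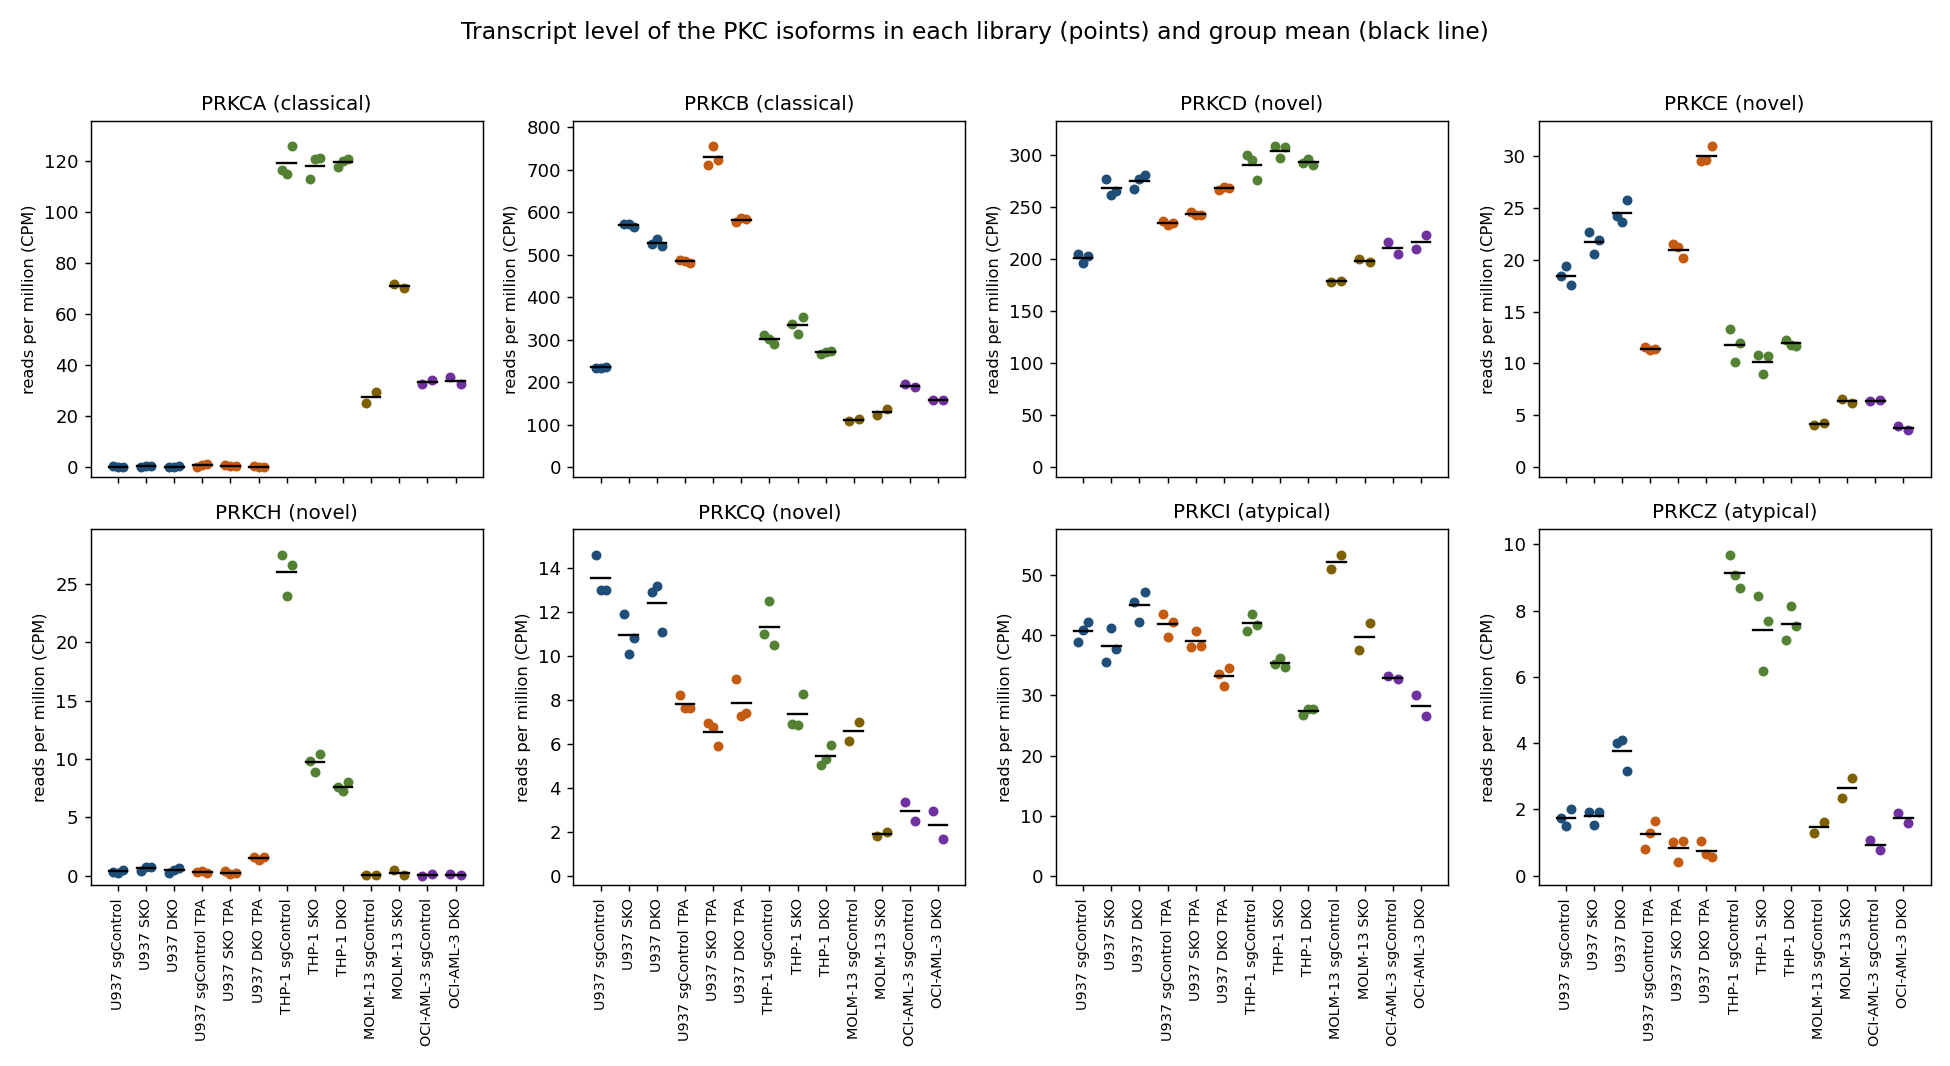
Level of each isoform in CPM (vertical axis, linear, own scale per panel) in the 35 libraries (points) of the 13 groups (horizontal axis), with group means as black lines. PRKCA and PRKCH are near 0 in all U937 groups and high in THP-1, and PRKCB moves with genotype and TPA in U937 while PRKCI stays between 26.5 and 53.4 CPM in every library.

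TPA in U937 sgControl cells went with more PRKCB and PRKCD and less PRKCE and PRKCQ transcript. PRKCB had 233.4, 234.3 and 236.9 CPM without TPA and 487.1, 485.9 and 480.7 CPM with it. Every treated library was above every untreated one, by 1.06 ± 0.03 on the log2 scale (SE, 2.08-fold, adjusted p = 1.3e-26). PRKCD had 204.6, 196.6 and 203.5 CPM without and 237.0, 233.0 and 234.9 CPM with TPA, a rise of 0.23 ± 0.03 (adjusted p = 1.3e-07). PRKCE, an nPKC isoform with known roles in macrophage activation, had 18.4, 19.4 and 17.6 CPM without and 11.6, 11.3 and 11.4 CPM with TPA. The groups did not overlap and the log2 fold change was -0.68 ± 0.07 (adjusted p = 1.1e-10). PRKCQ went from 14.6, 13 and 13 CPM to 8.23, 7.61 and 7.64 CPM, again without overlap (-0.78 ± 0.10, adjusted p = 2e-08).

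The atypical isoforms did not pass the test in sgControl. PRKCI had a log2 fold change of 0.05 (95% interval -0.07 to 0.17) and PRKCZ of -0.47 (-1.04 to 0.10, 63 to 73 reads against 34 to 62). PRKCH had -0.22 (-1.21 to 0.77) at 8 to 17 reads per library over both groups. PRKCA passed with 1.84 ± 0.66 (adjusted p = 0.013) on 18, 2 and 4 reads against 6, 34 and 46, and its groups overlapped. The PRKCA call was lost without U937 sgControl replicate 2 (adjusted p = 0.082) or 3 (0.058) or U937 sgControl TPA replicate 3 (0.14). In all, 5 of 8 members were called, against 67.7% of 16989 genes. The treated libraries are in another deposited table than the untreated ones, so TPA, table and sequencing run cannot be told apart. The summed level of the 13 myeloid markers rose beside these changes, from 933.7 to 953.1 CPM in untreated sgControl libraries to 1771 to 1792 CPM in treated ones. Of these markers, 8 were called higher and 2 lower, against 67.7% of all genes called. Their part in the isoform changes was not tested.

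In U937 SKO, PRKCB was already high before treatment and rose by less. It had 571.5, 572.5 and 565.8 CPM without and 711.6, 754.8 and 723.7 CPM with TPA, a log2 fold change of 0.39 ± 0.03 (adjusted p = 7.2e-14). PRKCD went the other way from sgControl, with -0.11 ± 0.03 (adjusted p = 0.0044). Without U937 SKO replicate 1 that call was lost (adjusted p = 0.051). PRKCE had 22.7, 20.5 and 21.9 CPM without and 21.5, 21.2 and 20.2 CPM with TPA, so the groups overlapped (-0.02, 95% interval -0.16 to 0.12). PRKCQ fell by 0.71 on the log2 scale (SE 0.11, adjusted p = 3.3e-07). PRKCZ fell by 1.06 (SE 0.29, adjusted p = 0.002), from 57 to 77 reads per library to 16 to 45. PRKCH had -1.22 ± 0.48 (adjusted p = 0.025) at 5 to 29 reads, and that call was lost without U937 SKO replicate 2 (0.097) or 3 (0.071) or U937 SKO TPA replicate 2 (0.12) or 3 (0.059). The count was 5 of 8 members, against 62.9% of genes.

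In U937 DKO, PRKCB had 526.3, 536.9 and 519.5 CPM without and 576.8, 587.3 and 584.6 CPM with TPA. The groups stayed apart, at 0.19 ± 0.03 (adjusted p = 1.1e-06). PRKCE rose here instead of falling, from 24.2, 23.6 and 25.7 CPM to 29.5, 29.6 and 30.9 CPM (0.33 ± 0.07, adjusted p = 2.6e-05). PRKCZ dropped most, from 4.01, 4.10 and 3.17 CPM to 1.06, 0.655 and 0.561 CPM (-2.25 ± 0.29, adjusted p = 1.4e-08). All 3 treated libraries were below all 3 untreated ones, at 19 to 37 against 109 to 153 reads. PRKCI, which did not pass in sgControl or SKO, fell by 0.40 (SE 0.06, adjusted p = 5.2e-07), from 45.6, 42.2 and 47.3 CPM to 33.5, 31.5 and 34.5 CPM. PRKCH rose from 8, 18 and 22 reads to 57, 42 and 55 reads (0.45 to 1.52 CPM on average, 1.80 ± 0.44, adjusted p = 0.00038). PRKCQ fell by 0.61 (SE 0.11), and PRKCD had 0.00 (95% interval -0.06 to 0.07). The count was 6 of 8 members, against 73.1% of genes.

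**Figure D3:**
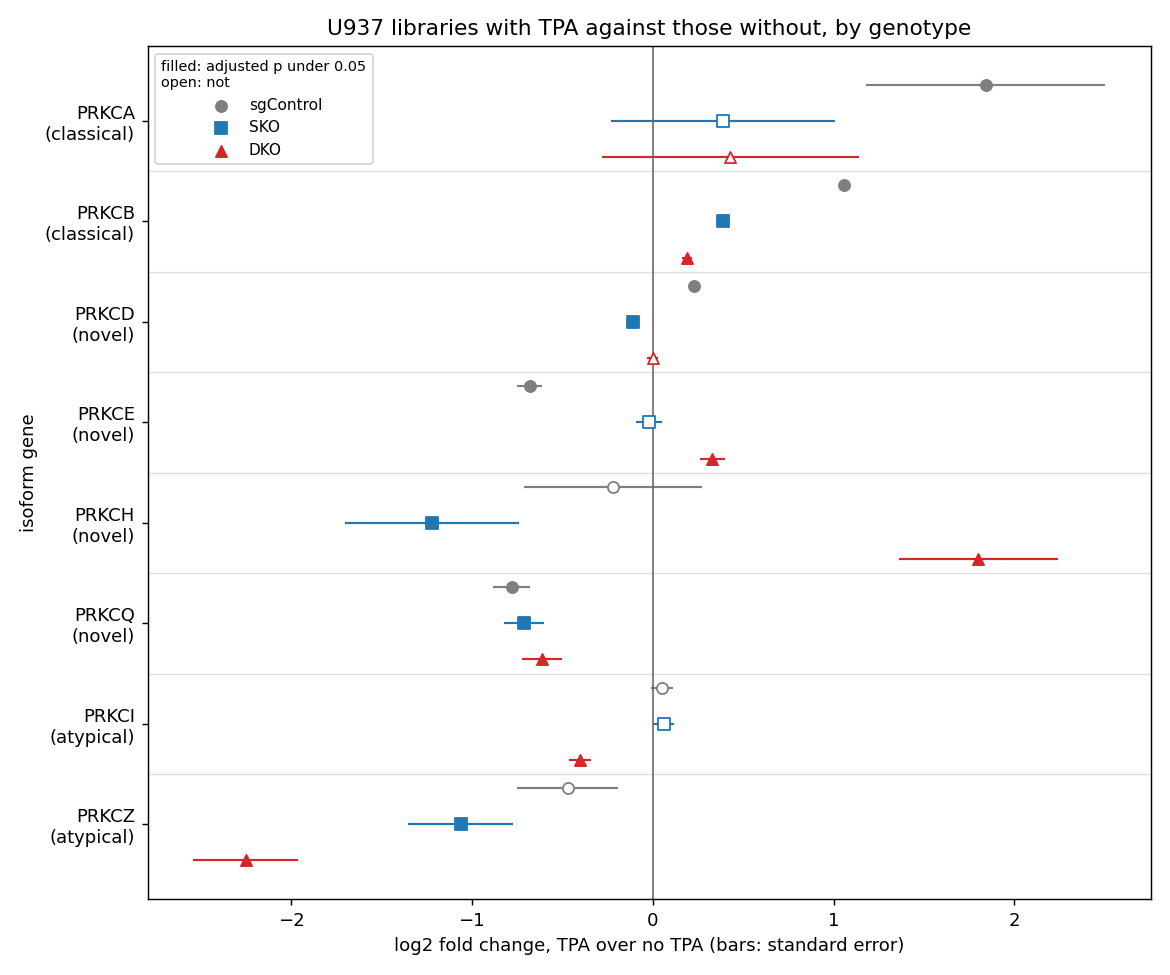
Log2 fold change with TPA over without TPA (horizontal axis, bars are standard errors) of each isoform in U937 sgControl, SKO and DKO (n = 3 against 3 libraries each), filled where the adjusted p is under 0.05. PRKCB lies right of 0 and PRKCQ left of 0 in all 3 genotypes, while PRKCE runs from -0.68 in sgControl to 0.33 in DKO. PRKCA and PRKCH rest on at most 57 reads per library.

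PRKCQ fell with TPA in all 3 genotypes, with log2 fold changes of -0.78, -0.71 and -0.61. The difference of the TPA effect from that in sgControl was 0.07 in SKO (95% interval -0.23 to 0.37) and 0.17 in DKO (-0.13 to 0.47). PRKCQ-AS1, a noncoding RNA gene named for PRKCQ whose deposited row does not overlap it, fell as well, by 0.85, 0.44 and 1.38 on the log2 scale.

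The TPA effect on PRKCB, PRKCD and PRKCE differed between genotypes by the interaction term. Relative to sgControl, the PRKCB effect differed by -0.67 ± 0.04 in SKO (adjusted p = 2.9e-15) and -0.87 ± 0.04 in DKO (6.1e-19). The PRKCD effect differed by -0.34 ± 0.05 in SKO and -0.23 ± 0.05 in DKO. The PRKCE effect differed by 0.66 ± 0.10 in SKO and by 1.02 ± 0.10 in DKO. In DKO the effects on PRKCH (2.02 ± 0.65, adjusted p = 0.0099), PRKCI (-0.45 ± 0.09) and PRKCZ (-1.79 ± 0.41) differed as well. These were 3 of 8 members for SKO, against 37.7% of genes, and 6 of 8 for DKO, against 49.6%. Both terms use the same sgControl libraries, so they are not independent of each other. Untreated DKO names lack the date code of sgControl, and the treated libraries are in another deposited table. For DKO, the difference in TPA effect and the run thus cannot be told apart. SUV39H1 was above sgControl in untreated DKO (83.0 against 66.3 CPM) and below it in treated DKO (22.3 against 36.8 CPM). The names of the treated libraries give no clone number.

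Among the treated libraries alone, PRKCE stood in the order of the genotypes, at 11.4, 21 and 30 CPM on average in sgControl, SKO and DKO. No library of one group reached the next. SKO was 0.88 ± 0.07 above sgControl and DKO 1.40 ± 0.07 above it (adjusted p = 4.4e-11 and 4.7e-16), and DKO was 0.52 ± 0.07 above SKO. PRKCB was highest in SKO (730.0 CPM), then DKO (582.9 CPM), then sgControl (484.5 CPM), all apart. PRKCH was higher in DKO than in sgControl by 2.30 ± 0.43, and PRKCI lower by -0.32 ± 0.06. PRKCD was higher in DKO by 0.20 ± 0.03, and in SKO it had 0.06 (95% interval -0.01 to 0.12). PRKCA (-1.25 ± 0.56, adjusted p = 0.048) was called lower in DKO on 8 to 12 reads against 6 to 46, in overlapping groups. Leaving out U937 sgControl TPA replicate 2 (adjusted p = 0.12) or 3 (0.36), or U937 DKO TPA replicate 1 (0.061), 2 (0.084) or 3 (0.13), ended that PRKCA call. In SKO 2 of 8 members were called, against 50.4% of 16246 genes, and in DKO 6 of 8, against 70.6%. Between DKO and SKO it was 6 of 8, against 63.7%, among them PRKCQ (0.28 ± 0.12, adjusted p = 0.038), which was lost without U937 SKO TPA replicate 2 (0.059) or 3 (0.18) or U937 DKO TPA replicate 1 (0.24).

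Without TPA, the knockouts of U937 had more PRKCB, PRKCD and PRKCE than sgControl. PRKCB rose from 234.9 CPM on average to 569.9 in SKO (1.28 ± 0.03, 2.42-fold, adjusted p = 2.8e-23) and to 527.6 in DKO (1.16 ± 0.03, 2.24-fold, adjusted p = 1.6e-22). By the per-library values given above, no knockout library came near the sgControl range. PRKCD rose by 0.41 ± 0.04 and 0.45 ± 0.04, and PRKCE by 0.23 ± 0.07 and 0.40 ± 0.07. PRKCQ fell by 0.32 in SKO (SE 0.09), and in DKO it had -0.13 (95% interval -0.32 to 0.06). The 19 tested genes within 5 Mb of PRKCQ had medians of -0.25 in SKO and -0.22 in DKO. Over all genes at that level the medians were -0.01 and -0.03. The part of this neighbourhood was not tested. PRKCZ had 73, 63 and 70 reads in sgControl, 77, 57 and 63 in SKO and 141, 153 and 109 in DKO. It rose in DKO (1.11 ± 0.20, adjusted p = 1.4e-05), while SKO had 0.04 (-0.39 to 0.47). The myeloid markers summed to 1471 to 1497 CPM in SKO and 1488 to 1536 CPM in DKO, above the sgControl range. Of 10 tested, 8 were called higher and 2 lower in SKO, and 9 and 1 in DKO, against 61.9% and 67.7% of all genes. Their part in these differences was not tested.

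PRKCI passed in U937 DKO with 0.14 ± 0.06 (adjusted p = 0.043), in overlapping groups. That call was lost without U937 sgControl replicate 1 (0.15) or 2 (0.064) or U937 DKO replicate 1 (0.097) or 3 (0.18). The 16 tested genes within 5 Mb of PRKCI had a median of 0.38 in the same comparison, against -0.03 over all genes at that level. PRKCA had 1.12 in SKO (95% interval -0.20 to 2.43) and was called without U937 sgControl replicate 1 (2.43, adjusted p = 0.012), and PRKCH 0.79 (-0.18 to 1.76). The count was 4 of 8 members in SKO, against 61.9% of 14915 genes, and 5 of 8 in DKO, against 67.7%. Both comparisons share the sgControl libraries. Between DKO and SKO, PRKCZ (1.07 ± 0.20) and PRKCI (0.23 ± 0.06) were higher in DKO and PRKCB lower (-0.11 ± 0.03), 4 of 8 members in all with PRKCE, against 49% of genes. The PRKCE call (0.17 ± 0.07, adjusted p = 0.044) was lost without U937 SKO replicate 2 (0.19) or 3 (0.077) or U937 DKO replicate 1 (0.074) or 3 (0.17).

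In THP-1 the knockouts lost PRKCH, PRKCQ and PRKCI transcript. PRKCH had 27.5, 24 and 26.6 CPM in sgControl, 9.82, 8.91 and 10.4 in SKO and 7.57, 7.26 and 8 in DKO. Every knockout library was under every sgControl library, by -1.41 ± 0.09 in SKO (2.67-fold lower, adjusted p = 1.8e-14) and -1.67 ± 0.09 in DKO (3.18-fold lower, 4.8e-16). PRKCQ had 11, 12.5 and 10.5 CPM in sgControl, 6.90, 6.88 and 8.28 in SKO and 5.03, 5.30 and 5.97 in DKO. It fell by 0.62 in SKO (SE 0.11) and by 0.96 in DKO (SE 0.12). The 20 tested genes within 5 Mb of PRKCQ on chromosome 10 whose mean log2 CPM was 1 or more had a median of -1.01 in SKO and -1.18 in DKO, against -0.02 and -0.14 over all genes at that level. PRKCQ moved in the direction of its neighbourhood and by less than its median. PRKCQ-AS1 fell beside it, by 0.78 in SKO and 0.91 in DKO. The 11 T and B cell markers summed to 20.5 to 23.8 CPM in sgControl, 9.11 to 9.82 in SKO and 7.04 to 8.39 in DKO, with 3 of 11 above 1 CPM in each group and 4, 4 and 2 of them at 0 reads. The myeloid markers summed to 1654 to 1784, 1661 to 1736 and 2045 to 2070 CPM. Of 13, 6 were called higher and 4 lower in SKO, and 9 and 3 in DKO, against 43.5% and 65.6% of all genes. The part of the neighbourhood or of these markers in the PRKCH, PRKCQ and PRKCI differences was not tested. Knockout and clone cannot be told apart in them.

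PRKCI fell by 0.24 in THP-1 SKO (SE 0.06) and by 0.51 in DKO (SE 0.06), from 42.0 to 35.4 and 27.4 CPM on average. The 22 tested genes within 5 Mb of PRKCI had medians of -0.20 and -0.27, against -0.02 and -0.14 over all genes at that level. PRKCB rose in SKO (0.16 ± 0.04, adjusted p = 0.0013). In DKO it had -0.05 (95% interval -0.13 to 0.03), but -0.15 (adjusted p = 0.00049) in the fit of all 35 libraries, so its call changed with the libraries in the fit. PRKCA (0.11 ± 0.05) and PRKCD (0.12 ± 0.04) were called higher in DKO in overlapping groups, and both had 0.01 in the fit of all 35 libraries. Leaving out any 1 of 5 THP-1 libraries ended the PRKCA call (sgControl replicate 1, adjusted p = 0.17, or 2, 0.26, or DKO replicate 1, 0.075, 2, 0.14, or 3, 0.15). The PRKCD call ended without THP-1 sgControl replicate 3 (0.12) or DKO replicate 2 (0.059). PRKCZ passed in SKO with -0.29 ± 0.12 (adjusted p = 0.041), a call lost without THP-1 sgControl replicate 1 (0.11) or 2 (0.066) or SKO replicate 2 (0.28) or 3 (0.073). PRKCE passed in neither knockout, but did in SKO without THP-1 sgControl replicate 2 (-0.31, adjusted p = 0.019).

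In THP-1 the count was 5 of 8 members in SKO, against 43.5% of 18585 genes, and 5 of 8 in DKO, against 65.6%. Between DKO and SKO it was 6 of 8, against 53.8%. Of these, PRKCB (-0.21 ± 0.04) and PRKCI (-0.27 ± 0.06) kept their calls with each library left out. PRKCA, PRKCE, PRKCH and PRKCQ each lost theirs without at least 1 library: THP-1 SKO replicate 1 (PRKCA, adjusted p = 0.21, and PRKCH, 0.056), SKO replicate 2 (PRKCE, 0.06), SKO replicate 3 (PRKCA, 0.061, PRKCH, 0.098, and PRKCQ, 0.11), DKO replicate 1 (PRKCA, 0.069, PRKCH, 0.053, and PRKCQ, 0.078), DKO replicate 2 (PRKCA, 0.13, and PRKCH, 0.074) and DKO replicate 3 (PRKCA, 0.14). The library names give the DKO libraries of THP-1 another date code than the other THP-1 libraries, so date and DKO cannot be told apart. In U937 the untreated DKO names carry no date code where sgControl and SKO carry 1, and 2 of the 3 carry another lane code, so the run and DKO cannot be told apart there either. U937 and THP-1 sgControl differ in date code too, so line and run cannot be told apart.

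The knockout effect differed between U937 and THP-1 most clearly for PRKCB. The U937 effect minus the THP-1 effect was 1.12 ± 0.05 for SKO (adjusted p = 5.8e-19) and 1.26 ± 0.05 for DKO (2e-20). PRKCH differed by 2.21 ± 0.34 for SKO and 2.02 ± 0.37 for DKO, where the U937 side rests on 8 to 29 reads per library. PRKCD differed by 0.35 ± 0.05 and 0.37 ± 0.05. PRKCE differed by 0.45 ± 0.13 for SKO. For DKO, PRKCE (0.32 ± 0.13, adjusted p = 0.031) lost its call without U937 sgControl replicate 3 (0.27), U937 DKO replicate 1 (0.15), 2 (0.13) or 3 (0.25), or THP-1 sgControl replicate 1 (0.064). For DKO, PRKCZ (1.32 ± 0.22), PRKCQ (0.87 ± 0.15) and PRKCI (0.70 ± 0.09) differed too. In that comparison the median of the 20 tested genes within 5 Mb of PRKCQ was 0.88 above that of all genes at that level. The median of the 20 near PRKCI was 0.41 above it. The PRKCQ difference was no larger than its neighbourhood's median, and the PRKCI difference was larger than its own. The part of these neighbourhoods was not tested. The library names give the DKO cells of U937 and THP-1 differently numbered guides against SUV39H2, so line and guide cannot be told apart for DKO. PRKCA passed for SKO (1.11 ± 0.46, adjusted p = 0.046) and lost the call without U937 sgControl replicate 2 (0.29) or 3 (0.20), U937 SKO replicate 2 (0.48) or 3 (0.062), THP-1 sgControl replicate 3 (0.053) or THP-1 SKO replicate 1 (0.053). The counts were 5 of 8 members for SKO, against 46.9% of genes, and 7 of 8 for DKO, against 54.4%.

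MOLM-13 SKO had more PRKCA and less PRKCQ than its sgControl. PRKCA had 25.4 and 29.5 CPM in sgControl and 71.7 and 70.2 CPM in SKO (1.38 ± 0.06, 2.60-fold, adjusted p = 1.6e-19). PRKCQ had 6.13 and 7 CPM against 1.82 and 1.99 CPM (-1.77 ± 0.17, 3.42-fold lower, adjusted p = 1.7e-10). The 2 groups were apart for both genes. The 23 tested genes within 5 Mb of PRKCQ had a median of -0.04 here, and PRKCQ-AS1 fell by 0.81. PRKCE (0.63 ± 0.15), PRKCB (0.24 ± 0.04) and PRKCD (0.16 ± 0.03) rose, and PRKCI fell by 0.38 (SE 0.05). PRKCZ rose by 0.86 ± 0.25 on 51 and 81 against 87 and 118 reads, and lost the call without MOLM-13 SKO replicate 2 (adjusted p = 0.055). All 7 members in the fit were called, against 64% of 15472 genes. The summed myeloid markers were 9525 to 9687 CPM in SKO and 2047 to 2133 CPM in sgControl. Of the 12 markers tested, 11 were called higher and 1 lower (median log2 fold change 0.57), against 64% of all genes called. Their part in these changes was not tested.

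In OCI-AML-3 DKO, PRKCE and PRKCB were lower than in sgControl. PRKCE had 6.36 and 6.48 CPM against 3.96 and 3.55 CPM (-0.76 ± 0.15, adjusted p = 2.9e-05), and PRKCB 195.4 and 188.0 against 159.3 and 158.4 CPM (-0.26 ± 0.05, adjusted p = 4.5e-05). PRKCA had 0.04 (95% interval -0.11 to 0.19), PRKCD 0.04 (-0.06 to 0.15) and PRKCQ -0.34 (-0.78 to 0.11). PRKCZ was called higher (0.92 ± 0.29, adjusted p = 0.0064), on 50 and 37 against 91 and 78 reads. It lost the call without OCI-AML-3 sgControl replicate 2 (0.082) or DKO replicate 1 (0.14) or 2 (0.08). PRKCI was called lower (-0.21 ± 0.08, adjusted p = 0.022) and lost the call without OCI-AML-3 sgControl replicate 1 (0.15) or 2 (0.12) or DKO replicate 2 (0.17). The count was 4 of the 7 members in the fit, against 49.9% of 16175 genes. The summed myeloid markers were 2365 to 2383 CPM in DKO and 1272 to 1328 CPM in sgControl, so the sum was higher where PRKCB and PRKCE were lower. Of the 13 markers, 8 were called higher and 2 lower (median log2 fold change 0.40), against 49.9% of all genes called. Their part in these changes was not tested.

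**Figure D4:**
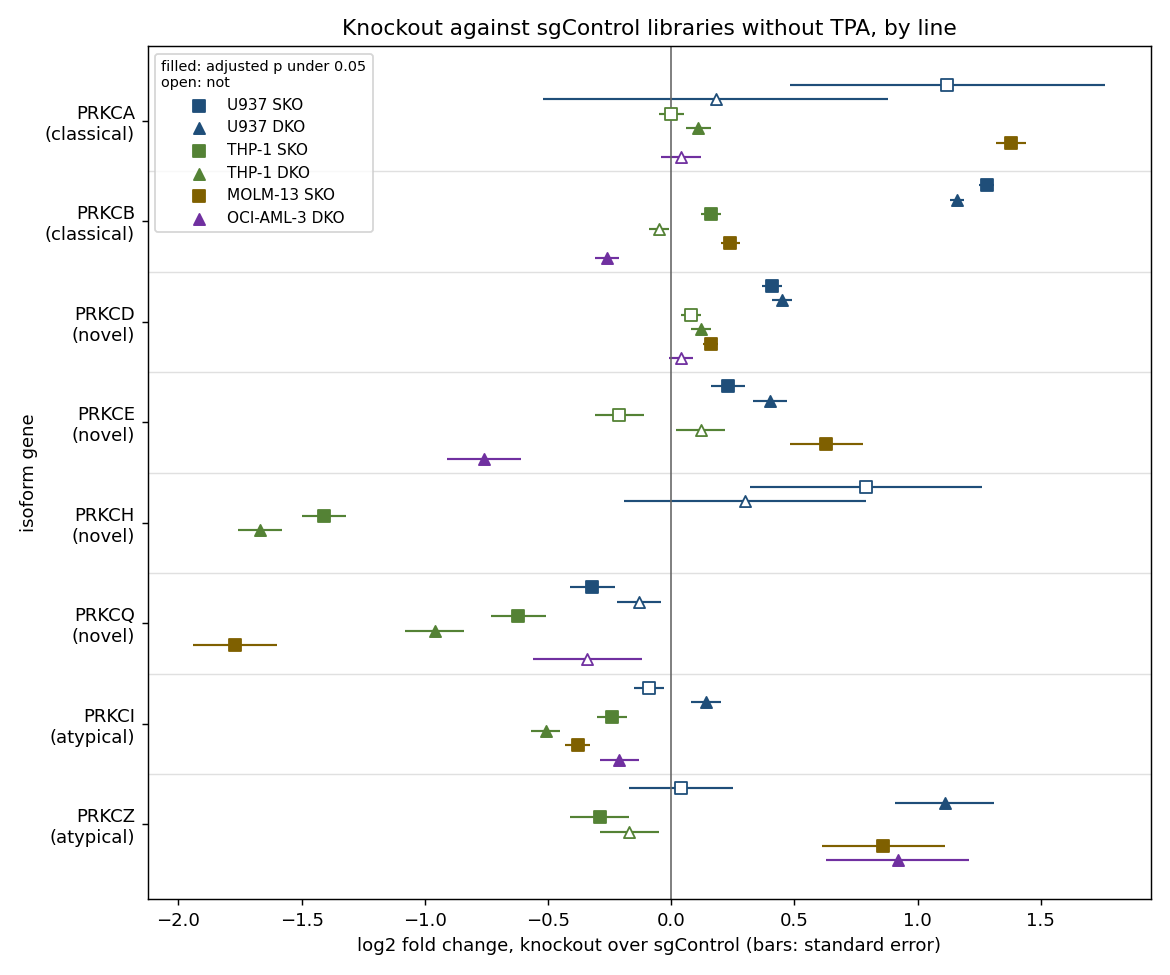
Log2 fold change of knockout over sgControl without TPA (horizontal axis, bars are standard errors) for each isoform in the 4 lines, filled where the adjusted p is under 0.05. PRKCB is shifted by more than 1 in U937 alone of the 4 lines, PRKCH by less than -1 in THP-1, PRKCA by 1.38 in MOLM-13, and PRKCH has no value in MOLM-13 and OCI-AML-3.

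The make-up of the PKC transcripts shifted towards the classical isoforms in treated and knockout U937 cells. The classical share of the summed RPKM was 23.6% ± 0.319 (SD, n = 3) in untreated sgControl, 37.4% ± 0.565 in SKO and 34.5% ± 0.646 in DKO. With TPA it was 36.7% ± 0.313, 45.8% ± 0.798 and 38.2% ± 0.222. Nearly all of it was PRKCB. The summed RPKM of the 8 members went from 90.3 ± 1.29 in untreated sgControl to 119.8 ± 1.00 with TPA, while SKO had 138.2 ± 2.16 without and 144.4 ± 1.98 with TPA and DKO 138.4 ± 1.71 without and 138.3 ± 0.536 with TPA. In MOLM-13 the classical share was 17.1% ± 0.499 (SD, n = 2) in sgControl and 22.3% ± 0.739 in SKO, and PRKCA made up 3.34% and 7.80%. The atypical share was largest in MOLM-13 sgControl, at 12.5% ± 0.247. These shares are descriptions without a test.

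Counting without strand limits PRKCZ and PRKCH. PRKCZ shares 590 exon bases, 7.67% of its own, with FAAP20 on the opposite strand, 266 with RP5-892K4.1 and 83 with PRKCZ-AS1. The command in the header, given for 1 of the 2 tables, leaves out reads in shared bases, and antisense reads in other PRKCZ exons cannot be told apart from its own. In U937 DKO, where PRKCZ fell most with TPA, FAAP20 had a log2 fold change of -0.04 (95% interval -0.25 to 0.17) and PRKCZ-AS1 of -0.86 (-2.01 to 0.28). RP5-892K4.1 had 0 to 158 reads per library over all lines (median 22), and its change with TPA was not examined. PRKCH shares exon bases with 4 rows, 356 with TMEM30B, 419 with RP11-47I22.4, 133 with RP11-902B17.1 and 138 with RP11-47I22.1. These rows had at most 12, 0, 4 and 22 reads in any library, the last of which lies within the range of PRKCH counts in U937. PRKCA, PRKCB, PRKCD, PRKCE, PRKCQ and PRKCI share no exon bases with another row.

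Upstream of PKC, phospholipase C enzymes make diacylglycerol and diacylglycerol kinases remove it. In U937 sgControl with TPA, 3 of the 11 tested phospholipase C genes rose and 6 fell, with a median log2 fold change of -0.34 against 0.053 over all genes and -0.08 over genes whose mean log2 CPM was 1 or more. Called genes were 67.7% of all genes in this comparison, 62.9% in SKO and 73.1% in DKO, and these shares stand beside each TPA count of the lists that follow. PLCB2, a form of blood cells, rose from 60.8 to 155.3 CPM (1.36 ± 0.04), and PLCB1 fell from 42.9 to 22.1 CPM (-0.94 ± 0.07). In SKO the counts were 3 and 6 (median -0.37 against 0.039) and in DKO 4 and 5 (-0.36 against 0.032). PLCB1 fell by 2.49 in DKO (SE 0.08). Of 8 diacylglycerol kinases, 4 rose and 3 fell in sgControl (median 0.23), led by DGKH (13.6 to 37.4 CPM, 1.48 ± 0.08) and DGKG (25.3 to 8.99 CPM, -1.49 ± 0.08). DGKH rose and DGKG fell in SKO (1.16 and -1.21) and DKO (1.52 and -1.59) too.

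Other proteins that bind phorbol esters include RAS guanine nucleotide exchange factors, protein kinase D and MUNC13 proteins. Of 11 tested genes, 2 rose and 3 fell with TPA in sgControl (median 0.11), 2 rose and 5 fell in SKO (0.07), and 4 rose and 2 fell in DKO (0.28), against 67.7%, 62.9% and 73.1% of all genes called. The share of called genes in this list was lower than that in each genotype except SKO, where 7 of 11 were called. RASGRP3, an exchange factor, rose from 0.35 to 41 CPM in sgControl (6.89 ± 0.14), from 0.312 to 72.2 CPM in SKO (7.89 ± 0.14) and from 1.53 to 151 CPM in DKO (6.66 ± 0.10). RASGRP2, an exchange factor of platelets and leukocytes, fell by 1.87, 0.76 and 2.49. In U937 without TPA, RASGRP4 was higher in SKO (2.07 ± 0.08) and DKO (2.31 ± 0.08, 6.08 to 30.2 CPM), where 3 of 10 tested genes rose and 2 fell in SKO (61.9% of all genes called) and 6 rose and 2 fell in DKO (67.7%). PRKD3, a protein kinase D, was higher in THP-1 than in U937 sgControl, at 81.8 against 1.36 CPM (5.92 ± 0.13).

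Genes for the folding, scaffolding and shut-off of PKC went both ways with TPA. In sgControl 4 of 19 rose and 9 fell (median -0.14), in SKO 5 and 7, and in DKO 8 and 9, against 67.7%, 62.9% and 73.1% of all genes called. The sgControl and SKO counts are near those shares. The chaperone gene HSP90AA1 fell from 3297 to 1457 CPM in sgControl (-1.17 ± 0.03). SQSTM1, which encodes a scaffold that binds atypical PKC, rose by 1.93 ± 0.04, 1.25 ± 0.04 and 2.10 ± 0.04 in the 3 genotypes. RICTOR, a subunit of the complex that primes PKC, rose by 1.18, 1.12 and 2.05. PARD6G, a polarity partner of atypical PKC, fell by 0.84, 0.88 and 1.48 with TPA, and without TPA it was lower by -2.17 ± 0.11 in U937 SKO and -2.50 ± 0.11 in DKO.

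Genes of PKC substrates went both ways. With TPA, 5 of 14 rose and 6 fell in sgControl, 1 rose and 10 fell in SKO, and 3 rose and 7 fell in DKO, with medians of 0.02, -0.27 and -0.24, against 67.7%, 62.9% and 73.1% of all genes called. MARCKS, a membrane protein and PKC substrate, fell from 58.6 to 9.04 CPM in sgControl (-2.68 ± 0.07). It fell from 95.5 to 23.1 CPM in SKO (-2.02 ± 0.06) and from 86.6 to 17.1 CPM in DKO (-2.30 ± 0.06). NCF1, the NADPH oxidase subunit that PKC phosphorylates, rose from 1.60 to 202.6 CPM in sgControl (6.99 ± 0.08). It has near-identical pseudogene copies, so its level is uncertain. In THP-1 DKO, where 65.6% of all genes were called, 5 of 15 rose and 7 fell, among them MARCKS (57.2 to 24.5 CPM, -1.12 ± 0.06). Among the scaffold and folding genes of THP-1 DKO, 3 of 21 rose and 14 fell (median -0.38 against 0.05 over all genes and -0.14 over genes whose mean log2 CPM was 1 or more), led by PAWR, an inhibitor of atypical PKC, with -2.70 ± 0.16.

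Across the 13 group means of log2 CPM, PRKCB and PRKCE varied together (Pearson's r = 0.87), and PRKCA ran against both (-0.65 with PRKCB and -0.72 with PRKCE). Groups of 1 line share their cells and often their sequencing run, and PRKCA separates U937 from the other lines, so these values describe lines as much as conditions. The genes most like PRKCA over these groups were SDCBP (r = 0.986), FNIP1 (0.986) and PRKD3 (0.985). Those most like PRKCB were ARHGAP31 (0.960), ACTR3 (0.953) and TSPAN33 (0.952). For PRKCE they were PCDH12 (0.971), REL (0.957) and PIAS1 (0.954), and for PRKCD, which varied little (SD 0.25), ARPC5, ZYG11B and IL6ST (0.907, 0.905 and 0.905). For PRKCQ the list was TSC22D1 (0.940), MFHAS1 (0.927) and PGRMC1 (0.921), for PRKCI it was PLS1 (0.892), SHQ1 (0.858) and ALDH16A1 (0.849), and for PRKCZ it was HYAL3 (0.947), PIGM (0.929) and PPIE (0.929). PRKCH was left out for its low mean level. By Spearman's rho, TSC22D1 ranked only 155th for PRKCQ, and PCDH12 and HYAL3 ranked first for PRKCE and PRKCZ.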

How the data were processed

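The deposited values are read counts per gene, raw and not normalized. Per the submitters' processing notes, the authors used fastp 0.23.4, STAR 2.7.11b, hg38 and Subread 2.0.6. Per the file headers, untreated U937 and THP-1 libraries were counted with featureCounts 2.0.6 on GENCODE 38 by gene name, without strand and with mates counted singly. Reads mapping to several places or genes were left out. The other table, with MOLM-13, OCI-AML-3 and the U937 libraries given TPA, carries no command, and its 59428 rows are the same. The exon lengths used for RPKM are those deposited. No deposited column was left unused. No row lacked a gene name.

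Tests used edgeR 4.0.16 under R 4.3.3 (filterByExpr, TMM, quasi-likelihood test), with Benjamini-Hochberg adjustment over all genes of a fit and calls under 0.05. Fits held the libraries of 1 line and treatment, or 18 libraries for TPA effects and for U937 against THP-1. They were checked on simulated counts. Intervals are 95%. Alternatives were DESeq2 1.42.0, its size factors, no filter, a replicate block, other libraries in the fit and each library left out. Most same-numbered libraries did not deviate together. Replicates differed by more than sampling noise. Members and gene lists were chosen with earlier results of these data known. Named genes were the members, the targeted genes, overlapping or PRKC-named rows, up to 3 genes per list, direction and comparison with the largest called change, and the 3 genes most correlated with each member (mean log2 CPM of at least 1, SD of at least 0.5). Genes within 5 Mb were added as context. Sequences are from RefSeq (GRCh38.p14), matched by symbol for 8 of 8 members.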

Additional observations from a re-analysis of the deposited data

Results flagged for a closer look

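Effects of TPA that differed between U937 genotypes, by the interaction term in edgeR, were found for 6 members, 3 of 8 in SKO against 37.7% of all genes and 6 of 8 in DKO against 49.6%. Against sgControl, the log2 effect in SKO differed by -0.67 for PRKCB, -0.34 for PRKCD and 0.66 for PRKCE. In DKO it differed by -0.87 for PRKCB, -0.23 for PRKCD, 1.02 for PRKCE, 2.02 for PRKCH, -0.45 for PRKCI and -1.79 for PRKCZ. The PRKCH term rests on at most 57 reads per library. In DKO these differences cannot be told apart from the run.

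Knockout effects that differed between U937 and THP-1 were found for 5 of 8 members in SKO, against 46.9% of all genes, and for 7 of 8 in DKO, against 54.4%. For SKO the difference, U937 minus THP-1, was 1.11 for PRKCA, 1.12 for PRKCB, 0.35 for PRKCD, 0.45 for PRKCE and 2.21 for PRKCH. For DKO it was 1.26 for PRKCB, 0.37 for PRKCD, 0.32 for PRKCE, 2.02 for PRKCH, 0.87 for PRKCQ, 0.70 for PRKCI and 1.32 for PRKCZ. For DKO, the genes within 5 Mb of PRKCQ and of PRKCI had medians in the same direction. The PRKCQ term was no larger than its neighbourhood's median, and the part of these neighbourhoods was not tested. The PRKCA term rests on 2 to 26 reads per U937 library and lost its call without any 1 of 6 libraries. The U937 side of the PRKCH terms rests on 8 to 29 reads per library. For DKO, the PRKCE term lost its call when certain single libraries were left out. Line and run cannot be told apart in these terms, nor line and SUV39H2 guide for DKO. No group has 4 or more libraries, so no library was tested as lying apart from its group.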

How the results depend on the processing

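Among the members' fold changes none changed direction as a called value under the alternatives run, and DESeq2's size factors ended 1 call, PRKCA in treated DKO against treated sgControl (-1.20, adjusted p = 0.058). These size factors also moved the median RPKM of 2 members by at least the median SD within groups, so levels per length depend on the scaling. The DESeq2 test ended 4 calls and gained 1, fitting only the groups compared ended 5 and gained 1, fitting all 35 libraries ended 10 and gained 3, and no filter on low counts ended 9. With no filter on low counts, 3 members instead of 5 were called in THP-1 DKO against sgControl. With 1 library left out, that count ranged from 3 to 4, the count in THP-1 DKO against SKO from 3 to 5 (6 with all libraries) and that in OCI-AML-3 DKO from 2 to 3 (4 with all). Over all genes, leaving out OCI-AML-3 DKO replicate 1 or 2 brought the called genes from 8065 to 5236 or 5020. The replicate block ended 1 call, again PRKCA in treated DKO against treated sgControl (-1.15, adjusted p = 0.091), and changed no other call of a member. Same-numbered libraries correlated by a median of 0.00 in U937 and 0.02 in THP-1. Of 9 such pairs in each line, 1 in U937 (highest 0.2) and 2 in THP-1 (highest 0.15) were over 0.1. A median near 0 cannot exclude that some numbers pair samples. A term for the lane code in 3 untreated U937 library names, chosen after seeing the data, ended the PRKCE call of U937 DKO against SKO (adjusted p = 0.052). With 1 library left out, calls were gained for PRKCZ in treated DKO against treated sgControl (-0.93 without U937 sgControl TPA replicate 1 and -1.02 without U937 DKO TPA replicate 1), for PRKCA in the differences of the TPA effect in SKO and in DKO (both without U937 sgControl replicate 1), for PRKCQ in U937 DKO against SKO (0.25 without DKO replicate 3) and in the SKO difference between lines (0.40 without THP-1 SKO replicate 3), and for PRKCD in THP-1 SKO (0.09 without sgControl replicate 1). Depth limits PRKCA and PRKCH in U937 and PRKCH in MOLM-13 and OCI-AML-3.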
